A study of Mus musculus with 3 samples.

Results

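The cytosolic ribosomal protein genes were taken as every symbol in the deposited count tables that begins with Rpl or Rps followed by a digit, without "-ps" in the name and without the kinase genes whose symbols begin with Rps6k. This gave 86 of the 32362 symbols of the series, 50 named for the large and 36 for the small ribosomal subunit. Of these 84 were listed for Drop-seq, 83 for 10x and 82 for C1, and 81 were in all 3 tables. The symbol rule is not exact. RefSeq lists 82 of the 86 as protein coding, Rpl6l, Rps3a2 and Rps3a3 as pseudogenes and Rps4y2 as a transcribed pseudogene, and Rps19bp1 encodes a protein that binds Rps19 and is no ribosomal protein itself. The members Rpl3l, Rpl7l1, Rpl10l, Rpl22l1, Rpl36al, Rpl39l and Rps27l are paralogues of ribosomal proteins.

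The samples were kidneys of wild-type mouse embryos at E14.5, of a mixed strain background that was mostly CD-1 and 129, dissociated and profiled as single cells on 3 platforms with 1 library each. The labels give the Drop-seq protocol for all 3. Drop-seq and the 10x Chromium capture cells in droplets and count unique molecular identifiers (UMIs). In the Fluidigm C1 table the deposited values are read counts per cell with no sign of a molecular identifier. They therefore grow with transcript length, and levels of different genes are compared here within the UMI libraries. The labels do not say whether the 3 libraries came from the same litter or how many embryos were pooled. The library is a block in the fit. All p-values therefore measure how far the class differences vary between these 3 libraries, and so between platforms.

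Each ribosome carries 1 small subunit, which reads the mRNA, and 1 large subunit, which joins amino acids, and the proteins of both are needed in about equal numbers. Transcripts of these genes are among the most abundant in growing cells. Most begin with a terminal oligopyrimidine (TOP) tract, a C followed by a run of C and T, through which growth signalling by mTORC1 controls their translation. In the embryonic kidney, self-renewing cap mesenchyme cells give rise to the nephron epithelium, next to the branching ureteric epithelium, the stroma and the endothelium.

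The starts of several genes whose levels are described below show this tract. The windows run from 30 bases before to 20 bases from the annotated RefSeq start (GRCm38.p6), printed 5′ to 3′ on the strand of the gene. Capitals mark a C with at least 5 further C or T bases that begins within 5 bases of the start. Rps26, Rps21, Rpl28, Rpl27a and Rpl22l1 are shown as members with large differences between cell classes that hold the tract, Rps25 and Rps28 as such members that do not (nor do Rpl4, Rpl19 and Rpl41, also named below), and Rpl22 because it is the canonical partner of Rpl22l1 and holds no such tract at its annotated starts, 1 of which is printed.
Rps26, chr10:128626487-128626536, minus strand: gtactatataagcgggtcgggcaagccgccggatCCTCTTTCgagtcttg
Rps21, chr2:180257349-180257398, plus strand: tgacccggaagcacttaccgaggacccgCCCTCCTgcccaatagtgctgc
Rpl28, chr7:4792935-4792984, plus strand: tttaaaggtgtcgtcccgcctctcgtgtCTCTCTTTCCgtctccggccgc
Rpl27a, chr7:109519165-109519214, plus strand: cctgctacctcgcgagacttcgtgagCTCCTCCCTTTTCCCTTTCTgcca
Rpl22l1, chr3:28805478-28805527, plus strand: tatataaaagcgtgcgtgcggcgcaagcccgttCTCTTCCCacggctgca
Rps25, chr9:44407684-44407733, plus strand: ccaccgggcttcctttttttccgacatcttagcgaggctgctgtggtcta
Rps28, chr17:33824543-33824592, minus strand: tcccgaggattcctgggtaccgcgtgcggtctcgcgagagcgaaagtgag
Rpl22, chr4:152325696-152325745, plus strand: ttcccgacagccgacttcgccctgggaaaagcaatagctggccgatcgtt
Rps21 has another annotated start, at chr2:180257419-180257468 by the same window, without the tract. Of the 66 members with a RefSeq window, 28 (42.4%) held the tract, against 3229 of the 27025 symbols with a window (11.9%). Among the mitochondrial ribosomal protein genes, whose products work in another ribosome, 4 of 69 (5.80%) held it, and among the ribosome biogenesis genes listed below 0 of 24. The search read the strand of the gene only, and a missing match says no more than that these letters are not near the annotated start.

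The libraries kept 1964 Drop-seq, 2130 10x and 883 C1 cells after filtering, with totals of 17751487 UMIs, 17465306 UMIs and 171283962 reads in that order, and no cell name was shared between libraries. A median of 7060 UMIs per Drop-seq cell, 7369 UMIs per 10x cell and 166712 reads per C1 cell was left. Cells were clustered within each library without the ribosomal protein genes, and clusters were called nephron epithelium-like, ureteric epithelium-like, stroma-like, endothelium-like or cap mesenchyme-like from fixed marker lists. "-like" is left out below. These held 608, 175, 418, 103 and 600 Drop-seq cells, 449, 154, 811, 368 and 201 10x cells, and 137, 70, 375, 77 and 83 C1 cells, in the same class order, and 91 10x and 127 C1 cells stayed unnamed. The 127 unnamed C1 cells formed 1 cluster that scored highest for cap mesenchyme markers (0.317, next neural with 0.226). They are not among the 83 C1 cap mesenchyme cells used as the reference below. With coarser clusters (Leiden resolution 0.6), a C1 cluster of 141 cells was named cap mesenchyme. It shared leading genes with the unnamed cluster, such as Npy, Acvr2b and Uncx. The stroma is treated as 1 class. In it, 1 C1 cluster of 78 cells, led by Kcnj8, scored only slightly higher for stroma markers than for cap mesenchyme markers. In C1 the nephron epithelium consisted of early nephron (65 cells) and proximal tubule (72 cells) clusters only. The C1 ureteric epithelium cluster scored 1.131, with distal nephron next at 0.541. In the largest ureteric clusters of Drop-seq and 10x these scores were 1.351 and 0.112, and 1.659 and 0.129. Whether the C1 cluster holds distal nephron cells was not tested. The C1 table lists no mitochondrial genes, whose counts were 4.77% of the 10x total and 2.71% of the Drop-seq total.

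Ribosomal protein genes took up a large part of every library, and the part differed by platform. Their counts made up 14.05% of the Drop-seq UMIs, 24.0% of the 10x UMIs and 15.6% of the C1 reads. The median cell was close to these sums, at 14.3% (Drop-seq), 23.5% (10x) and 15.2% (C1). With 1 library per platform these are descriptions, with no test, and the widest 95% binomial interval of any class share extended 0.155 percentage points to each side, for counting error only.

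In every library the cap mesenchyme had the highest share of counts in ribosomal protein genes among the 5 classes compared, and the ureteric epithelium or the stroma the lowest. In C1 the order at the top depended on the processing. There nephron epithelium lay above cap mesenchyme with no doublet removed (log2 ratio 0.05), with coarser clusters (0.06) and when cells were assigned by marker z score (0.0032), and endothelium did so by z score (0.03). In Drop-seq the share was 14.1% in nephron epithelium, 12.9% in ureteric epithelium, 13.4% in stroma and 14.499% in endothelium, against 15.3% in cap mesenchyme. In 10x it was 25.2% in nephron epithelium, 22.4% in ureteric epithelium, 22.8% in stroma and 23.3% in endothelium, against 27.7% in cap mesenchyme. In C1 it was 16.3% in nephron epithelium, 15.2% in ureteric epithelium, 14.9% in stroma and 16.0% in endothelium, against 16.4% in cap mesenchyme. Ureteric epithelium was lowest in both UMI libraries and stroma was lowest in C1. In Drop-seq the order at the bottom depended on the processing. Without the 5 barcodes of highest count the log2 ratio over cap mesenchyme was -0.185 in ureteric epithelium and -0.189 in stroma. By the median cell it was -0.187 and -0.194 in that order. How far cells of the classes overlapped differed by library. In the 10x library the first and the third quartile of the cells were 18.7% and 24.6% in ureteric epithelium, and 26.2% and 30.4% in cap mesenchyme. In C1 the same quartile range was 13.5% to 16.3% in ureteric epithelium and 15.2% to 17.5% in cap mesenchyme. The quartile ranges of the 2 classes lay apart in 10x and overlapped in C1.

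**Figure D1:**
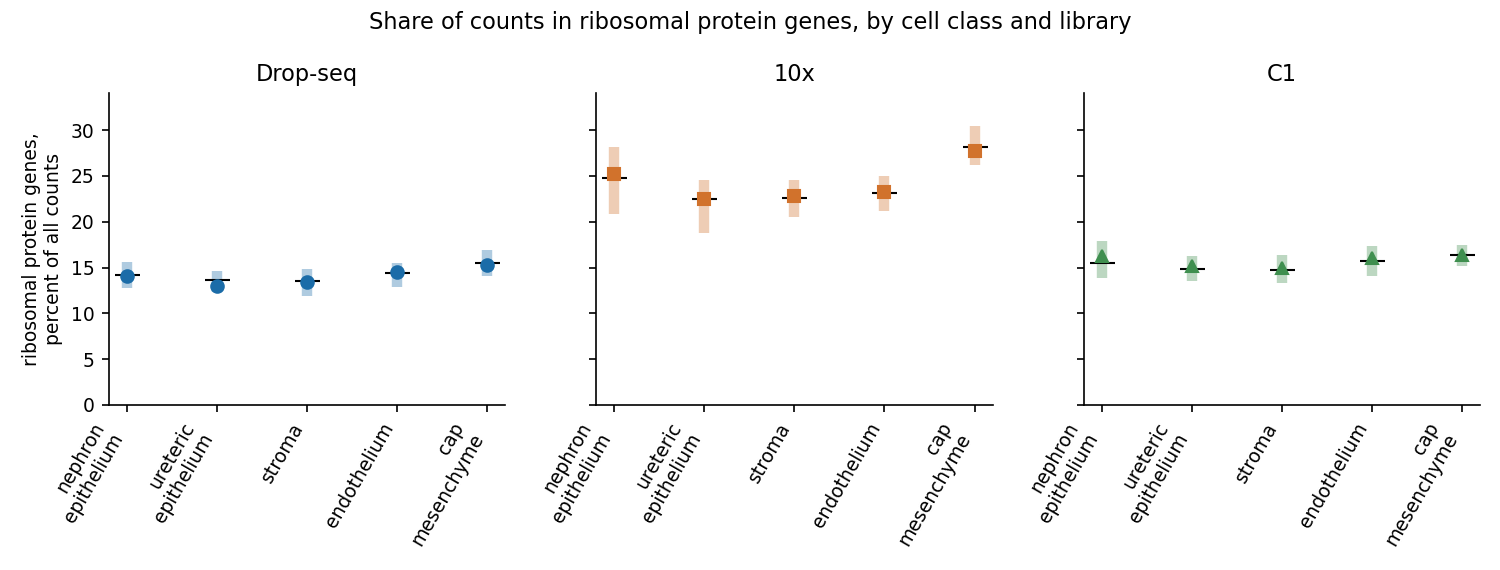
Share of all counts held by ribosomal protein genes (vertical axis, percent) for 5 cell classes in each library. Symbols are the share in the summed counts of a class, black lines the median cell and shaded bars the range from the first to the third quartile of cells. The cap mesenchyme symbol is the highest in each panel, at 15.3% (Drop-seq), 27.7% (10x) and 16.4% (C1), though in C1 nephron epithelium or endothelium passed it under other settings.

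As a log2 ratio of shares over cap mesenchyme, ureteric epithelium stood at -0.24 (Drop-seq), -0.31 (10x) and -0.11 (C1), a mean of -0.22 ± 0.10 (SD, n = 3 libraries). Stroma stood at -0.19, -0.28 and -0.14 in the same order, a mean of -0.20 ± 0.07 (SD, n = 3). Nephron epithelium stood at -0.12, -0.14 and -0.01, a mean of -0.09 ± 0.07 (SD, n = 3). Endothelium stood at -0.08, -0.25 and -0.03, a mean of -0.12 ± 0.12 (SD, n = 3). The mean lay more than 2 SDs below 0 for ureteric epithelium and stroma. For nephron epithelium and endothelium it lay within 1.5 SDs of 0, and the C1 ratio was small. These 4 ratios share the cap mesenchyme cells of each library, so they are set side by side and are not independent of each other.

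Other measures of the cells moved with the share in places. The median depth in 10x was 8154 UMIs in ureteric epithelium and 6442 UMIs in stroma, against 8335 UMIs in cap mesenchyme, and in Drop-seq it was 7482 and 6455.5 UMIs, against 6825 UMIs. Across cells of 1 class, Spearman's rho between the share and the depth ranged from -0.220 in the 600 cap mesenchyme cells of Drop-seq to 0.479 in the 449 nephron epithelium cells of 10x, a description of cells that share a library. The part of depth in the class differences was not tested. The C1 cell names fall into 2 kinds, beginning with HT (553 cells) or E14 (330 cells), whose meaning the labels do not give. The share was 14.9% in the HT cells and 16.7% in the E14 cells. Within the HT cells the log2 ratio over cap mesenchyme was -0.12 for ureteric epithelium, -0.10 for stroma, -0.02 for nephron epithelium and 0.02 for endothelium. Within the E14 cells it was -0.13, -0.12, 0.03 and -0.05 in that order. The lower shares of ureteric epithelium and stroma were thus present in both kinds of cells, while those of nephron epithelium and endothelium were within 0.06 of 0 and differed in sign.

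The cap mesenchyme was not uniform. In Drop-seq it comprised 3 clusters of 232, 213 and 155 cells with ribosomal protein shares of 14.6%, 16.0% and 15.8%. The cluster with the lowest share had the highest share of counts in cell cycle genes, 1.77%, against 0.685% and 1.06% in the other clusters. It was also the deepest, with a median of 9062 UMIs against 5995 and 6125 UMIs. The part of either in its lower share was not tested. Within the nephron epithelium, the distal nephron clusters had 13.1% in Drop-seq and 23.1% in 10x, and podocyte clusters, the filtration cells of the glomerulus, 13.9% and 21.7%. Both lay below the cap mesenchyme in the libraries that held them. Early nephron epithelium had 14.1% (Drop-seq), 27.5% (10x) and 14.3% (C1), which was near the cap mesenchyme in 10x only. The C1 early nephron cluster was led by the globin genes Hbb-y and Hba-x. Its next score after early nephron epithelium (0.718) was erythroid (0.159), and the part of globin reads in its share was not tested. Outside these classes, immune cells had 26.0% in 10x (56 cells) and 13.9% in C1 (14 cells). The Drop-seq erythroid cluster of 60 cells, which also carried immune markers, had 9.34%, with quartiles of 1.45% and 14.3% over its cells.

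Each gene was tested with edgeR's quasi-likelihood test on counts summed by library and class, with the library as a block, and Benjamini-Hochberg adjustment over 10217 genes that had served neither for clustering nor for naming. Of the 86 members 80 were tested. Rpl6l, Rps27rt, Rps3a2, Rps3a3 and Rps4y2 are not in all tables under these symbols, and Rpl3l, the paralogue of Rpl3 known from heart and skeletal muscle, did not pass the filter on low counts. "Fell" below means an adjusted p under 0.05 and a level below that of cap mesenchyme. Levels are given as CPM, the counts of a gene scaled to a fixed library total over the 17864 symbols shared by the 3 tables without mitochondrial genes, while fold changes are also adjusted for composition by TMM, so that the 2 can differ.

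In ureteric epithelium nearly the whole set was lower than in cap mesenchyme, and no member passed as higher. Of the 80 members tested 67 fell (83.8%), against 8.05% of all genes tested that fell and 15.1% that passed in either direction. The fall was modest: the fitted log2 fold changes of the fallen members ran from -0.65 to -0.23. The median over all 80 was -0.37, beside -0.08 over all genes tested. Of the 67, 63 were lower in each of the 3 libraries. Proteins of both subunits were involved, with 39 of the 48 large-subunit and 28 of the 32 small-subunit members. The count was 6 of 78 members when Drop-seq was left out, beside 133 of 10183 genes that fell. It was 7 of 80 when 10x was left out, beside 237 of 10346 genes. When C1 was left out it was 74 of 79, beside 994 of 9515 genes. It was 36 of 80 with coarser clusters (Leiden resolution 0.6), beside 593 of 10199 genes that fell. Scaling to total counts gave 40, beside 467 of 10217 genes. Leaving out the 5 barcodes of highest count gave 54, beside 710 of 10217 genes. Both of the last settings were added after seeing the data.

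Rps21, a small-subunit protein, had 610.8 CPM in ureteric epithelium against 778.1 CPM in cap mesenchyme in Drop-seq, 798.3 against 1173 CPM in 10x and 1021 against 1260 CPM in C1, a log2 fold change of -0.55 ± 0.08 (SE, edgeR's quasi-likelihood test, adjusted p = 0.000218). The ureteric value was the lower in all 3 libraries.

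Rpl28, a large-subunit protein whose start is printed above, had 965.7 CPM in ureteric epithelium against 1168 CPM in cap mesenchyme in Drop-seq, 2423 against 3113 CPM in 10x and 2167 against 3341 CPM in C1. Its log2 fold change was -0.57 ± 0.12 (edgeR adjusted p = 0.00308). Rps25, a protein of the head of the small subunit, had 2107 against 2877 CPM in Drop-seq, 2085 against 2933 CPM in 10x and 1077 against 1221 CPM in C1, a log2 fold change of -0.52 ± 0.08 (edgeR adjusted p = 0.000283). The C1 difference was the smallest of the 3 for Rps25 and the largest for Rpl28. Rpl34, of the large subunit, had the largest fitted fall, -0.65 ± 0.12 (edgeR adjusted p = 0.00159). It had 909.2 against 1081 CPM in Drop-seq and 1897 against 2606 CPM in 10x, but only 1.76 against 3.99 CPM in C1, where the gene was almost absent in every class.

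A few members stood apart in ureteric epithelium. Rps3a1, of the small subunit, had 3986 CPM in ureteric epithelium against 4240 CPM in cap mesenchyme in Drop-seq, 4687 against 4885 CPM in 10x and 2890 against 2501 CPM in C1, a log2 fold change of -0.12 that did not pass (edgeR adjusted p = 0.275). Rpl7, of the large subunit, had 2647 against 2875 CPM, 3996 against 4342 CPM and 2536 against 2233 CPM in the same order, a log2 fold change of -0.16 (edgeR adjusted p = 0.161). In both genes the C1 library had the opposite order to the UMI libraries. Rps19bp1, which is no ribosomal protein, was the only tested member with a fitted value above 0, at 0.10 (edgeR adjusted p = 0.758). It had 119.0 against 102.9 CPM in Drop-seq, 113.4 against 98.3 CPM in 10x and 212.5 against 174.3 CPM in C1.

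In stroma the set was lower than in cap mesenchyme as well, with no member higher. Of the 80 tested members 59 fell (73.8%), against 6.63% of all genes tested that fell and 11.4% that passed in either direction. The median log2 fold change over the 80 was -0.32, beside -0.06 over all genes tested, and the members that fell ran from -0.49 to -0.23. It was lower in each library for 58 of the 59. They comprised 32 of the 48 large-subunit and 27 of the 32 small-subunit members. Leaving out Drop-seq gave 2 of 78 members, beside 103 of 10183 genes that fell. Leaving out 10x gave 0 of 80, beside 127 of 10346 genes, and leaving out C1 gave 66 of 79, beside 883 of 9515. The count was 22 with the coarser clusters, 33 with classes named by marker z score and 31 with scaling to total counts. Beside these, 384 of 10199, 397 of 9426 and 393 of 10217 genes fell in that order.

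Rps21 was also the member with the largest fall in stroma, with 594.9 CPM there against 778.1 CPM in cap mesenchyme in Drop-seq, 848.1 against 1173 CPM in 10x and 1042 against 1260 CPM in C1. Its log2 fold change was -0.49 ± 0.08 (SE, edgeR adjusted p = 0.000931). Rps2, a small-subunit protein at the site where the mRNA enters, had 2036 against 2428 CPM in Drop-seq, 4268 against 5992 CPM in 10x and 1860 against 2405 CPM in C1, a log2 fold change of -0.48 ± 0.08 (edgeR adjusted p = 0.00169). Rpl4, which lines the exit tunnel of the growing peptide, had 2967 against 3584 CPM in Drop-seq, 3122 against 4221 CPM in 10x and 2968 against 3424 CPM in C1, a log2 fold change of -0.42 ± 0.07 (edgeR adjusted p = 0.000823). The stromal value of each of these genes was the lower in every library.

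Rpl27a, whose tract above is the longest of those printed, had 2391 CPM in stroma against 2907 CPM in cap mesenchyme in Drop-seq, 3054 against 4239 CPM in 10x and 1718 against 1873 CPM in C1. Its log2 fold change was -0.41 ± 0.07 (edgeR adjusted p = 0.00123). Rpl12, a protein at the base of the stalk that recruits elongation factors, had 1781 against 2153 CPM, 1795 against 2539 CPM and 798.2 against 867.7 CPM in the same order, a log2 fold change of -0.41 ± 0.08 (edgeR adjusted p = 0.00446). Rps28 and Rps14, of which Rps14 lies on the platform of the small subunit, fell by 0.42 and 0.41 on the log2 scale (edgeR adjusted p = 0.00243 and 0.00382).

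In nephron epithelium, which descends from the cap mesenchyme, few members passed the test. Of the 80, 7 fell (8.75%), against 2.41% of all genes tested that fell and 5.85% that passed in either direction, and no member was higher. The median log2 fold change over the 80 was -0.18, beside -0.05 over all genes tested. All 80 fitted values lay below 0, where the median of all genes tested lay too. The share of all genes below 0 is not given here. The number of members below 0 was 72 with scaling to total counts, 73 with the coarser clusters and 77 with scaling without the members. The libraries differed, with member medians of -0.23 (Drop-seq), -0.19 (10x) and -0.08 (C1). No member passed without Drop-seq, without 10x, with the coarser clusters or with classes by z score. Of all genes, 29 of 10183, 56 of 10346, 191 of 10199 and 105 of 9426 fell in that order. Without C1 45 of 79 members fell, beside 544 of 9515 genes. The count was 3 with RLE size factors and 1 with scaling to total counts or without the members. Of 10217 genes, 237, 165 and 227 fell under these settings.

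The 7 members, all lower in each library, included Rps26, Rps14, Rps21, Rpl19 and Rpl18. Rps26, a small-subunit protein at the exit of the mRNA, had 6136 CPM in nephron epithelium against 7554 CPM in cap mesenchyme in Drop-seq, 2377 against 3146 CPM in 10x and 4013 against 4551 CPM in C1. Its log2 fold change was -0.38 ± 0.08 (SE, edgeR adjusted p = 0.0132). Rps14 had 4032 against 4570 CPM in Drop-seq, 6136 against 6817 CPM in 10x and 8740 against 11200 CPM in C1, a log2 fold change of -0.32 ± 0.08 (edgeR adjusted p = 0.0256). Rpl19, a large-subunit protein that reaches over to the small subunit, had 2578 against 2916 CPM, 3636 against 4229 CPM and 1667 against 1826 CPM in the same order, a log2 fold change of -0.26 ± 0.07 (edgeR adjusted p = 0.0404). Rps21 and Rpl18 had log2 fold changes of -0.29 and -0.26. The 7 genes kept a gap of the same direction in the 3 libraries but their adjusted p-values, from 0.0132 to 0.0495, were close to the threshold.

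In endothelium fewer members passed than in ureteric epithelium or stroma, and none passed as higher. Of the 80, 16 fell (20%), against 11.9% of all genes tested that fell and 20.7% that passed in either direction. The median log2 fold change over the 80 was -0.15, beside -0.11 over all genes tested, and 71 of the 80 values lay below 0. That number was 57 with the coarser clusters and 56 with classes by z score, and the share of all genes below 0 is not given here. All 16 were lower in each library, 10 of them of the large and 6 of the small subunit. Leaving out Drop-seq gave 2 of 78 members, beside 345 of 10183 genes that fell. Leaving out 10x gave 0 of 80, beside 627 of 10346 genes, and leaving out C1 gave 25 of 79, beside 1535 of 9515. The count was 1 with the coarser clusters or classes by z score, beside 966 of 10199 and 706 of 9426 genes. It was 9 with RLE size factors and 8 without the 5 barcodes of highest count, beside 1203 and 1038 of 10217 genes. Except without C1, each of these member shares was near or below that of all genes.

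Rps26 again had the largest fall, with 6168 CPM in endothelium against 7554 CPM in cap mesenchyme in Drop-seq, 1777 against 3146 CPM in 10x and 3838 against 4551 CPM in C1. Its log2 fold change was -0.48 ± 0.09 (SE, edgeR adjusted p = 0.000752), and the gap was widest in 10x. Rps14 had 4198 against 4570 CPM in Drop-seq, 5188 against 6817 CPM in 10x and 8037 against 11200 CPM in C1, a log2 fold change of -0.36 ± 0.08 (edgeR adjusted p = 0.00451). Rpl23a, a large-subunit protein at the exit of the peptide tunnel, had 1568 against 1937 CPM, 3623 against 4898 CPM and 3031 against 3178 CPM in the same order, a log2 fold change of -0.30 ± 0.07 (edgeR adjusted p = 0.00424). Rps28, Rpl13a, Rps18, Rpl14 and Rpl41 had log2 fold changes between -0.33 and -0.25. The endothelium also held members with fitted values above 0 that did not pass. Rps6, the small-subunit protein phosphorylated by the S6 kinases below mTORC1, had 3597 CPM in endothelium against 3192 CPM in cap mesenchyme in Drop-seq, 4950 against 4851 CPM in 10x and 2625 against 2233 CPM in C1, a log2 fold change of 0.12 (edgeR adjusted p = 0.289). Rpl10, a large-subunit protein that joins late in assembly, had 2859 against 2512 CPM in Drop-seq, 4309 against 4536 CPM in 10x and 3310 against 2655 CPM in C1, a log2 fold change of 0.12 (edgeR adjusted p = 0.240). After adjustment for composition both were higher in endothelium in all 3 libraries, while the CPM of Rpl10 was the lower there in 10x.

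**Figure D2:**
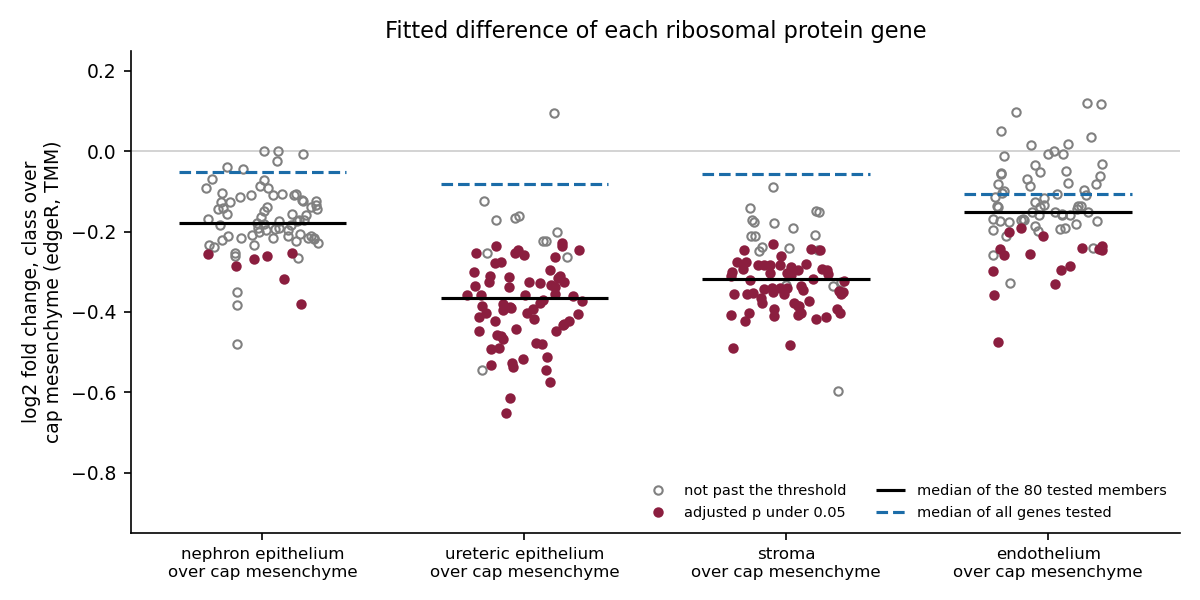
Fitted log2 fold change (vertical axis) of each tested ribosomal protein gene for 4 classes over cap mesenchyme, 1 point per gene, filled where the adjusted p of edgeR's quasi-likelihood test was under 0.05. Rpl10l and Rpl39l, which had almost no counts, are not drawn. The black line is the median of the 80 members (-0.18, -0.37, -0.32 and -0.15 from left to right) and the dashed line that of all genes tested (-0.05, -0.08, -0.06 and -0.11).

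Over the 4 comparisons, which share the cap mesenchyme samples, 8 of the 80 tested members passed in none, 17 in 1, 37 in 2, 14 in 3 and 4 in all 4. The matching counts over all genes tested are not given here, so this overlap is not read as particular to the members. Rps14 and Rps26 were among those that passed in all 4. Scaling to total counts moved the median of all genes by over 0.1, to 0.06 in both ureteric epithelium and stroma, beside member medians of -0.22 and -0.21 there. Relative to that shift the members stayed lower. Leaving out a library also leaves fewer samples and residual degrees of freedom, and the part of the platform in the changed counts was not tested.

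Among single members, levels in the UMI libraries spanned several orders of magnitude. In Drop-seq the highest were Rps26 with 6464 CPM, Rps9 with 4872 CPM, Rps4x with 4441 CPM, Rps14 with 4107 CPM and Rps3a1 with 4053 CPM, all of the small subunit. In 10x the highest included Rpl41, the shortest ribosomal protein, with 7199 CPM, Rpl13 with 6880 CPM, Rps19, the gene most often mutated in human Diamond-Blackfan anaemia, with 6143 CPM, and Rpl13a with 5874 CPM. The lists of the 5 highest had no gene in common, and Rps26 had 2397 CPM in 10x. At the low end with a count in Drop-seq were Rpl3l with 3 UMIs (0.204 CPM), Rpl39l with 2.52 CPM, Rpl10l with 2.79 CPM, Rpl24 with 23.0 CPM and Rps19bp1 with 101.3 CPM. In 10x they were Rpl39l with 5 UMIs (0.307 CPM), Rpl6l with 29.7 CPM, Rpl29 with 35.1 CPM, Rps19bp1 with 94.8 CPM and Rpl7l1 with 162.5 CPM. Rpl10l and Rpl39l are known from the testis and Rpl3l from muscle, and apart from them and the genes lost on a platform every member in all 3 tables had at least 35.1 CPM in each library.

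Several core members were lost on 1 platform, each a different set. Lost means under 10% of the lower of the other 2 libraries, or not listed at all, for members with at least 50 CPM in both of the others. In Drop-seq the lost gene was Rpl24 (chr16:55966275-55971435, plus strand), a large-subunit protein whose mutation causes the Belly spot and tail phenotype in mice. It had 338 UMIs there (23.0 CPM) against 3015 CPM in 10x and 1462 CPM in C1, or 1.57% of the lower of those. The loss ran through all classes, with 23.8 CPM in nephron epithelium, 24.6 CPM in ureteric epithelium, 24.9 CPM in stroma and 21.1 CPM in endothelium, against 20.5 CPM in cap mesenchyme.

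In C1 the lost genes were Rpl26, Rpl30, Rpl34 and Rps27, 3 proteins of the large and 1 of the small subunit. Rpl26, which also binds p53 mRNA in human cells, had 0 reads in C1, which allows up to 0.0183 CPM at 3 counts, against 2165 CPM in Drop-seq and 3201 CPM in 10x. Rpl30 had 54 reads (0.329 CPM) in C1 against 581.2 CPM in Drop-seq and 1527 CPM in 10x. Rpl34 had 447 reads (2.72 CPM) against 979.8 CPM and 2310 CPM, and Rps27 had 391 reads (2.38 CPM) against 541.2 CPM and 2240 CPM. The highest of the 4, Rps27, stood at 0.440% of the lower of the other libraries. In GENCODE vM21 on GRCm38 they lie apart, Rpl26 at chr11:68901583-68906989 on the plus strand, Rpl30 at chr15:34440505-34443640, Rpl34 at chr3:130726831-130730398 and Rps27 at chr3:90212522-90213651, the last on the minus strand like Rpl30 and Rpl34. Their coding lengths are 435 bases for Rpl26, 345 for Rpl30, 351 for Rpl34 and 252 for Rps27. Members with shorter coding sequences were counted in C1, such as Rpl41 with 75 coding bases and 6783 CPM, and Rpl39 with 153 coding bases and 1009 CPM. Whole transcripts differ less, with 437 bases for Rpl41 and 612 for Rpl39. Those of the lost genes have 526 (Rpl26), 570 (Rpl30), 480 (Rpl34) and 345 bases (Rps27). Rpl39 is thus the longest of these by transcript, and the part of length was not tested. The near-identical copies of the lost genes that C1 lists held few reads too, with 2 reads each for Rpl34-ps1 and for Gm12191, a copy of Rpl30, and 0 for Gm15772, a copy of Rpl26.

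The members just outside the limit were Rpl21 in Drop-seq, at 24.0% of the lower of the other libraries, Rpl29 in 10x at 26.8%, and Rpl36, Rps28 and Rps18 in Drop-seq at 29.1%, 36.0% and 36.2%. The nearest in C1 was Rpl6 at 41.2%. Between them and the lost genes, the highest of which stood at 1.57%, no member lay. In 10x the only member lost by this rule was Rps4y2, a transcribed pseudogene related to Rps4x. The 10x table lists it neither under this symbol nor under 3 other names in RefSeq, Rps4l among them, and it had 107.6 CPM in Drop-seq and 141.1 CPM in C1. The other members missing from a table were Rpl6l (29.7 CPM) and Rps27rt (178.3 CPM), listed under these symbols in 10x only (the other tables list Rps27rt by its older name Gm9846), and Rps3a2 (3638 CPM) and Rps3a3 (2902 CPM), listed in Drop-seq only.

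**Figure D3:**
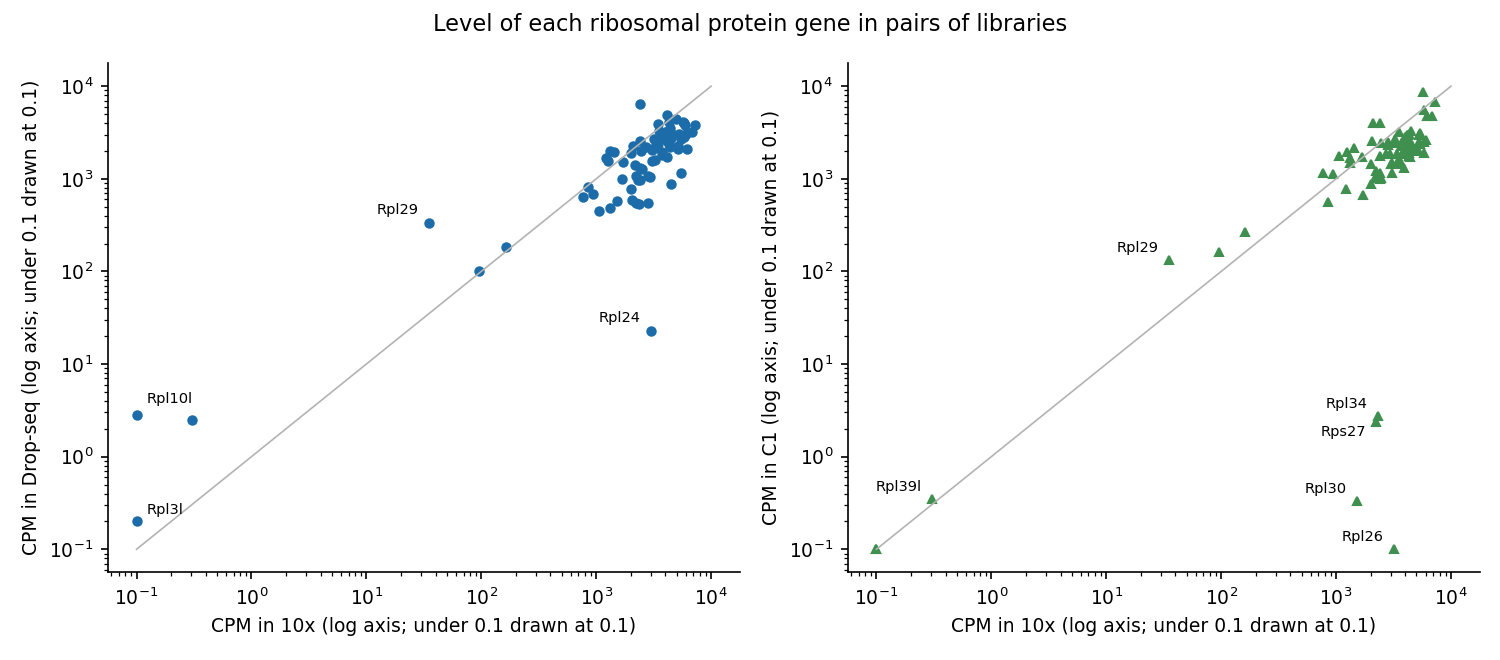
Level of each ribosomal protein gene in Drop-seq (left) and C1 (right) against its level in 10x, in CPM on log axes, with equality as the grey line. On these log axes the points above 500 CPM lie near the line compared with the lost genes, though levels differ. In Drop-seq, Rps2 (2236 against 5166 CPM in 10x) and Rps18 (1142 against 5422 CPM) lie below the line. Rps26 (6464 against 2397 CPM) lies above the line. Rpl24 lies far below it in Drop-seq at 23.0 CPM, and Rpl26, Rpl30, Rpl34 and Rps27 lie far below it in C1 at 0 to 2.72 CPM.

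The genes of this family have many near-identical copies in the genome, so that a read can match several places. Of the 82 members with a coding sequence in the GENCODE annotation, 75 had 1 or more copies with at least 95% identity over at least 80% of it, with a median of 5 and up to 57. Symbols of such copies outside the rule numbered 51 in the Drop-seq, 33 in the 10x and 15 in the C1 table. Their counts made up 6.17% of the Drop-seq UMIs, 0.210% of the 10x UMIs and 0.188% of the C1 reads. With them added, which was chosen after seeing the data, the share became 20.2% (Drop-seq), 24.2% (10x) and 15.8% (C1). The Drop-seq share was the one that moved most.

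In Drop-seq some copies came close to or above the gene they resemble. Rps26-ps1 had 4237 CPM beside 6464 CPM for Rps26. Gm6472 had 3334 CPM beside 2399 CPM for Rps7, and Gm10288 had 3143 CPM beside 1925 CPM for Rpl11, a large-subunit protein that binds the p53 regulator Mdm2. Rps3a2 and Rps3a3, pseudogenes by RefSeq, had 3638 and 2902 CPM beside 4053 CPM for Rps3a1. In 10x, Gm10709 had 899.3 CPM beside 35.1 CPM for Rpl29, whereas in Drop-seq Gm10709 had 358.6 CPM beside 335.1 CPM for Rpl29. The level of a single member with copies is therefore uncertain in each library, since the sources used here do not say how reads that match several places were assigned.

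**Figure D4:**
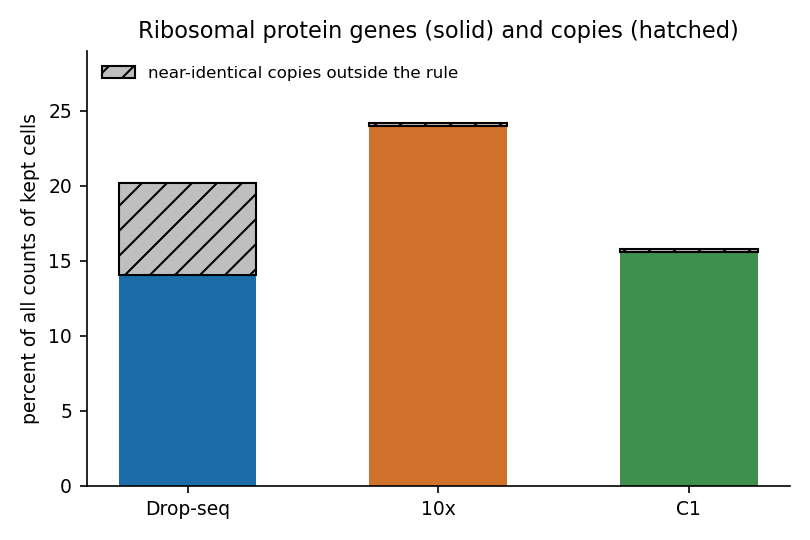
Percent of all counts of kept cells (vertical axis) in ribosomal protein genes (solid bars) and in near-identical copies outside the symbol rule (hatched) for each library. The copies add 6.17% of all counts (Drop-seq), 0.210% (10x) and 0.188% (C1).

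Rps27 shows how close such copies are. The last 60 coding bases of Rps27 and its paralogues are printed from the GENCODE vM21 transcripts (GRCm38), where capitals mark bases that differ from Rps27, and the coordinates are those of the gene.
Rps27, chr3:90212522-90213651, minus strand: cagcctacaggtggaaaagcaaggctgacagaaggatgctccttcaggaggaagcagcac
Rps27rt, chr9:114982366-114982739, minus strand: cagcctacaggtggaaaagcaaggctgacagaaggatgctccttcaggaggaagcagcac
Rps27l, chr9:66946086-66949516, plus strand: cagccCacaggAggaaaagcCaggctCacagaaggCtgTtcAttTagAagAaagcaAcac
Rps27rt is identical to Rps27 over all 252 coding bases. Rps27l, a target gene of p53, is 76.2% identical over the same length and differs at 11 of the last 60 bases. Rps27rt appears in 10x with 178.3 CPM beside 2240 CPM for Rps27. Under its older symbol Gm9846 it had 1077 CPM beside 541.2 CPM for Rps27 in Drop-seq, and 0 reads in C1. Rps27l, whose sequence can be told apart, had 631.1 CPM in Drop-seq, 765.6 CPM in 10x and 1148 CPM in C1, so it was present in the library in which Rps27 was lost.

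The pairs of paralogues differed in how evenly they were used. Rpl22l1, which can replace Rpl22 in the ribosome and is kept low by Rpl22 in mouse cells, was expressed at about the level of Rpl22 in the UMI libraries. It had 1509 CPM in Drop-seq, 1705 CPM in 10x and 671.3 CPM in C1, and Rpl22 had 1692, 1224 and 779.9 CPM. The ratio of Rpl22l1 to Rpl22 was lowest in ureteric epithelium in every library. In Drop-seq it was 0.877 in nephron epithelium, 0.752 in ureteric epithelium, 1.03 in stroma and 0.847 in endothelium, against 0.905 in cap mesenchyme. In 10x it was 1.38, 1.09, 1.67 and 1.23 in that order, against 1.24 in cap mesenchyme. In C1 it was 0.859, 0.734, 0.926 and 0.860, against 0.947 in cap mesenchyme. Since C1 reads grow with transcript length, its ratios are compared between classes only. The near-identical copy Gm15421 held 165.3 CPM beside 671.3 CPM for Rpl22l1 in C1, and its part in the ratios was not tested. Relative to cap mesenchyme the log2 ratio was -0.28 ± 0.09 in ureteric epithelium (SD, n = 3 libraries), 0.20 ± 0.23 in stroma, -0.01 ± 0.15 in nephron epithelium and -0.08 ± 0.07 in endothelium. The value in stroma was above 0 in both UMI libraries and -0.03 in C1.

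**Figure D5:**
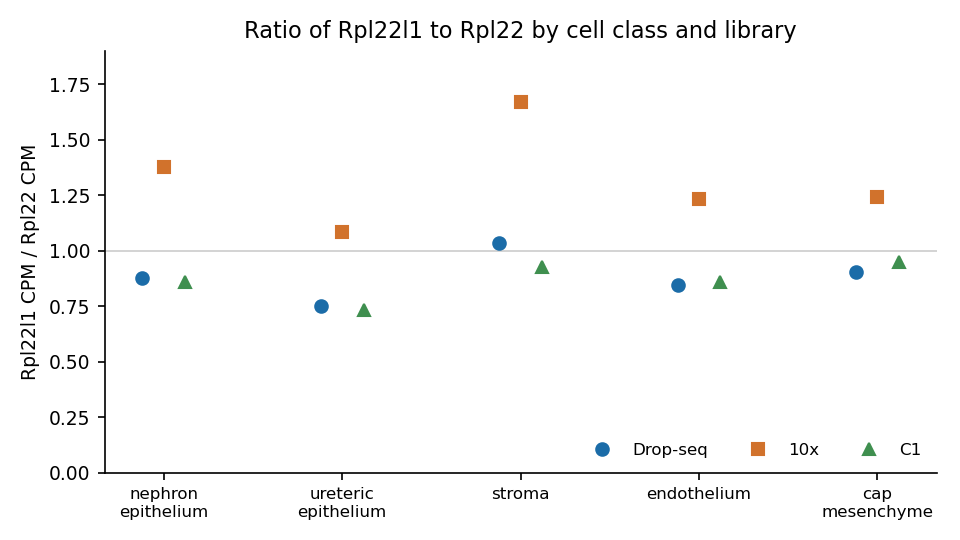
Ratio of the CPM of Rpl22l1 to that of Rpl22 (vertical axis) by cell class, 1 symbol per library. Ureteric epithelium has the lowest ratio in each library, 0.752 (Drop-seq), 1.09 (10x) and 0.734 (C1).

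In the test, Rpl22l1 fell in ureteric epithelium, with 1204 CPM there against 1658 CPM in cap mesenchyme in Drop-seq, 1321 against 1831 CPM in 10x and 588.3 against 684.8 CPM in C1. Its log2 fold change was -0.53 ± 0.09 (SE, edgeR adjusted p = 0.000568). Rpl22 had 1600 against 1833 CPM, 1217 against 1477 CPM and 801.7 against 723.2 CPM in the same order, a log2 fold change of -0.25 that did not pass (edgeR adjusted p = 0.0548). The difference between the 2 genes' fold changes was not tested other than by the ratios above. The other paralogues with counts were Rpl36al, with 816.8 CPM in Drop-seq, 842.5 CPM in 10x and 560.0 CPM in C1, and Rpl7l1, a relative of Rpl7, with 184.6, 162.5 and 268.7 CPM. Rpl39l had 17.4 CPM in the 56 immune cells of 10x, from 5 UMIs, and 21.7 CPM in the 14 immune cells of C1, from 56 reads. These counts came from few cells, since the gene was found in 0.0939% of all 10x cells and 0.227% of all C1 cells. In the 5 other classes it had 0 UMIs in 10x and at most 0.0170 CPM in C1, while in Drop-seq, where no immune class was named, it had 1.86 to 4.22 CPM in each of them.

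Genes that work with the ribosomal proteins were compared from fixed lists. Each count stands beside the share of all genes tested that fell, 2.41% in nephron epithelium, 8.05% in ureteric epithelium, 6.63% in stroma and 11.9% in endothelium, and each median beside those of all genes tested, -0.05, -0.08, -0.06 and -0.11. Of the 7 tested ribosomal proteins without a digit in their symbol, such as the stalk protein Rplp0, 2 fell in nephron epithelium, 7 in ureteric epithelium, 7 in stroma and 3 in endothelium, and none rose. Their median log2 fold changes were -0.20, -0.41, -0.36 and -0.09, below those of all genes except in endothelium. Rplp0 had log2 fold changes of -0.33 in nephron epithelium, -0.52 in ureteric epithelium, -0.45 in stroma and -0.19 in endothelium (edgeR adjusted p = 0.00324, 4.0e-05, 0.000266 and 0.0403). Of 17 translation factors and other genes known for TOP mRNAs, 2, 9, 8 and 6 fell in that order and none rose, with medians of -0.23, -0.31, -0.29 and -0.17. Npm1, a nucleolar chaperone of ribosome assembly, had -0.65 ± 0.10 in ureteric epithelium (SE, edgeR adjusted p = 0.000264), and Eef2, the translocation factor of elongation, had -0.58 ± 0.10 in stroma (edgeR adjusted p = 0.00158).

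Of 28 ribosome biogenesis genes, 2 fell in nephron epithelium, 13 in ureteric epithelium, 13 in stroma and 5 in endothelium. Gnl3, which encodes the nucleolar protein nucleostemin, had -0.92 in ureteric epithelium and Rrs1, an assembly factor of the large subunit, -0.88 (edgeR adjusted p = 0.000364 and 0.00308). The exception in direction was Nhp2, a core protein of box H/ACA RNA particles, which rose in endothelium with a log2 fold change of 0.45 (edgeR adjusted p = 0.0204). By library its log2 ratio was 0.51 (Drop-seq), 0.86 (10x) and -0.01 (C1), so the rise was absent in C1. The median log2 fold change of the 28 was -0.34 in nephron epithelium, -0.46 in ureteric epithelium, -0.50 in stroma and -0.15 in endothelium. The MYC family genes tested were Myc, Mycn, Max, Mnt and Mxd4. Of these 5, 1 fell in ureteric epithelium, 1 in stroma and 1 in endothelium, and none rose. Myc, a transcription factor known to drive ribosome genes, fell in ureteric epithelium by 2.22 and in stroma by 1.65 on the log2 scale (edgeR adjusted p = 7.74e-06 and 0.000109). Mycn fell in endothelium by 1.03 (edgeR adjusted p = 0.00538). In stroma Mxd4 had 0.46 and Mycn -0.09 (edgeR adjusted p = 0.131 and 0.855), and neither passed. None of the 5 tested family genes passed in nephron epithelium, where Myc had -0.63 (edgeR adjusted p = 0.0722). Mitochondrial ribosomal proteins, which share the name but not the ribosome, were called less uniformly. Of 76 tested, 0 fell and 1 rose in nephron epithelium, 7 fell and 1 rose in ureteric epithelium, 18 fell in stroma, and 5 fell and 2 rose in endothelium. Their medians were -0.07, -0.20, -0.35 and -0.14 in that order. Their share that fell was near that of all genes in ureteric epithelium and below it in nephron epithelium and endothelium. In stroma their share lay above that of all genes, with 18 of 76 beside 6.63%. Their stroma median of -0.35 stood beside -0.32 for the cytosolic members. The largest changes among the mitochondrial genes were Mrpl23 in stroma (-1.25) and Mrps6 in ureteric epithelium (1.03). Whether the cytosolic and mitochondrial sets differ from each other was not tested.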

How the data were processed

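The deposited tables hold raw counts per gene and cell, as UMI counts for Drop-seq and 10x and read counts for C1, on mm10 (GRCm38). Per the submitters' processing notes, Bowtie2 2.2.7 was named for Drop-seq and C1 and Cell Ranger 1.3.0 for 10x. The sources used here do not name the counting program, the gene annotation or the treatment of multiply matching reads. Levels of members with near-identical copies depend on these steps.

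Cells with fewer than 500 genes or over 20% mitochondrial counts were removed. The first limit removed 36 Drop-seq and 43 10x cells, the second 105 10x cells, and neither any C1 cell. Doublets called by scanpy 1.11.5 (Scrublet) were removed in 10x (17) and C1 (11). In Drop-seq only 5 were called, under 0.5%, so the caller was taken not to have worked there and none was removed. Cells were clustered per library (2000 variable genes without members, 30 principal components, 15 neighbours, Leiden resolution 1, leidenalg 0.10.2) and named from 12 marker lists, with at least 3 detected markers. Counts were summed per library and class with at least 20 cells (16 sums) and fitted in R 4.3.3 with edgeR 4.0.16 (13677 genes fitted, library as block, 8 residual degrees of freedom, TMM, threshold 0.05). The same script was tested on simulated data. DESeq2 1.42.0, other scalings, filters and class definitions were the alternatives.

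Named genes were the members lost on or missing from a platform, the 8 largest changes per comparison among members that passed with the same direction in 3 libraries, the 5 highest and 5 lowest members per UMI library, the paralogues, and companion lists. A few genes that this rule names are not reported here. Other genes (Rps3a1, Rpl7, Rps6, Rpl10, and single companions) were chosen after their values were seen. Members, lists and tests were chosen with earlier results of these data known. Copies were matched on GENCODE vM21, start windows on RefSeq GRCm38.p6. Intervals and limits cover counting error only, and reads without identifiers are not independent molecules.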

Additional observations from a re-analysis of the deposited data

Results flagged for a closer look

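The proximal tubule clusters stood out among the nephron epithelium because their ribosomal protein share relative to cap mesenchyme went in different directions in the libraries. The log2 ratio of the share was 0.0064 in Drop-seq (15.4% against 15.3%), -0.11 in 10x (25.7% against 27.7%) and 0.10 in C1 (17.6% against 16.4%). The difference between libraries was not tested.

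Signal was also present in symbols outside the rule. Near-identical copies of ribosomal protein genes held 6.17% of all counts (Drop-seq), 0.210% (10x) and 0.188% (C1), above the limit that a count of 0 allows in each library.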

How the results depend on the processing

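No paired analysis was possible because each platform gave 1 library, and the library is itself the block of the fit. No member was called higher under any setting. For ureteric epithelium 67 members fell, 40 with scaling to total counts and 36 at Leiden resolution 0.6. For stroma 59 fell, with 31 and 22 under those settings and 33 with classes by marker z score. For nephron epithelium 7 fell, with 4 without the filter on low counts, 3 with RLE size factors, 1 with scaling to total counts, 1 with scaling without the ribosomal protein genes, 11 with adjustment over all fitted genes, 0 at Leiden resolution 0.6 and 0 under z-score classes. For endothelium 16 fell, with 9 under RLE size factors, 1 at Leiden resolution 0.6, 1 under z-score classes and 8 without the 5 barcodes of highest count. With 1 library left out, the counts ranged from 0 to 45 in nephron epithelium and 6 to 74 in ureteric epithelium. They ranged from 0 to 66 in stroma and 0 to 25 in endothelium. In nephron epithelium 211 of 13988 genes fell without the filter on low counts and 480 of 13677 with adjustment over all fitted genes. For the other settings, the genes that fell are given with each class above. The mean log2 share ratios moved by less than their SD under every setting run, and the genes lost per platform did not change with limits of 5% or 20% or a floor of 20 CPM. The C1 ratio of nephron epithelium rose above 0 with no doublet removed (0.05), at Leiden resolution 0.6 (0.06) and with z-score classes (0.0032), and that of endothelium with classes by z score (0.03). Library shares were 14.4% in Drop-seq and 25.2% in 10x without mitochondrial genes, and 13.9%, 23.5% and 15.6% in Drop-seq, 10x and C1 with all deposited barcodes. With copies added they were 20.2%, 24.2% and 15.8%. Scaling to total counts, adding copies and leaving out the 5 barcodes were chosen after seeing the data; the cause of each change was not tested. The 31 named values kept their sign throughout, and 16 no longer passed at Leiden resolution 0.6, 22 without Drop-seq and 26 without 10x. Depth limits Rpl3l, Rpl10l and Rpl39l, which have almost no counts.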
